A study of Mus musculus with 6 samples.

Results

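The genes described here run fatty acid oxidation and ketone body metabolism in the liver or are known targets of PPARα. They form a list of 37 genes, drawn up by name with earlier results of these data known, of mitochondrial and peroxisomal beta-oxidation, acyl-CoA thioesterases, ketone body enzymes and PPARα targets, and every probe set annotated to 1 of them alone was taken. Of the 37 genes, 35 had such a probe set, out of 18193 genes in the whole series, with 61 probe sets between them. Acsl1 and Cyp4a10 had none and are not analysed here. Livers of male mice on a mixed background, aged 8 weeks and fed standard chow, were taken after a fast of 24 h. Total RNA was hybridized to Affymetrix arrays, 3 from Mig-6 d/d livers and 3 from Mig-6 f/f livers. Mig-6, encoded by Errfi1, restrains signalling by epidermal growth factor receptors. In such notation d/d marks the deleted and f/f the floxed, intact allele, but the labels give neither the promoter that drove the deletion, nor the cells it covers, nor whether the arrays come from different animals. The errors and p-values therefore measure only the spread between these samples, which may be technical.

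During a fast, adipose tissue releases fatty acids, and the hepatocyte takes them up, activates them to acyl-CoA, carries them into mitochondria as carnitine esters and oxidizes them stepwise to acetyl-CoA, much of which leaves the liver as ketone bodies. Peroxisomes shorten very long chains, and cytochromes P450 of the Cyp4a family hydroxylate the far end of the chain. PPARα is the nuclear receptor that fatty acids activate in the fasted liver. It binds DNA with a retinoid X receptor at a direct repeat of AGGTCA with a single base between the copies, and its loss in mice blunts the induction of these genes by fasting.

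The promoter sequences of members that hold such a repeat are shown because they give the element through which the receptor is known to act. The motif AGGTCANAGGTCA was searched on both strands in the 250 bases upstream of each gene start in RefSeq (GRCm38.p6), with up to 2 mismatches outside the N, and 29 of the 37 genes had a promoter there. Cyp4a14, Cyp4a31, Cyp4a10, Vnn1, Crat, Decr1, Acat1 and Acaa2 had none and were not searched. A match was found for 4 of the 29 genes searched (13.8%), against 1005 of 27025 genes with a promoter (3.72%). Capitals mark the match, which reads on the strand opposite to the gene in all 4. The stretches lie at chr6:71199782-71199854 (plus strand) for Fabp1, chr5:17835917-17835989 (minus strand) for Cd36, chr9:55512278-55512350 (minus strand) for Etfa and chr12:84038336-84038378 (plus strand) for Acot4.
Fabp1: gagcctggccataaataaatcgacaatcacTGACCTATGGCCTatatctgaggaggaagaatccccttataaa
Cd36: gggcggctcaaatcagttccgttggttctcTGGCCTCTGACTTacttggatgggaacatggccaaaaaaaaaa
Etfa: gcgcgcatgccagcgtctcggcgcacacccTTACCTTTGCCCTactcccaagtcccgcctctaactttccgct
Acot4: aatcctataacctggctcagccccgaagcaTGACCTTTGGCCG
The match of Fabp1 had 1 mismatch and lay 67 to 55 bases upstream of the start, and the other 3 had 2 mismatches. None of these 4 genes had an unadjusted p under 0.05 between the genotypes, and a match is a description of the letters only. Of the members that did have such a p, Cyp4a14 and Crat were among those not searched.

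Errfi1 marked the genotypes, with deposited intensities of 68.0, 61.8 and 59.6 on the d/d arrays and 5371, 5424 and 5686 on the f/f arrays. One array, f/f replicate 3, differed from the rest: the control probe sets for 18S ribosomal RNA averaged 3807 on it, 8.36 times the next array at 455, and it correlated with the rest at 0.963 on average, where the other arrays had 0.978 to 0.981. Values are therefore also given without it. Hepatocyte markers were bright on every array, with a summed intensity of Alb, Apoa1, Ttr, Cyp2e1 and Cps1 of 123555 to 125679.8 in d/d and 124513 to 125761 in f/f. For 4 of these 5 markers the d/d and f/f intensities did not overlap, beside 14.1% of all genes tested. Their log2 differences after quantile normalization, d/d minus f/f, ran from -0.15 to 0.05. The summed intensity of 10 Kupffer cell markers ran from 2628 to 3347 in d/d and from 3058 to 4329 in f/f, with 9 of the 10 lower in d/d. That of 6 stellate cell markers ran from 2082 to 2483 in d/d and from 2632 to 2888 in f/f, with 3 of the 6 lower in d/d. Dcn alone ran from 1466 to 1787.5 in d/d and from 1980.4 to 2164 in f/f, and the sums of the other 5 overlapped, with 616 to 696 in d/d and 651 to 724 in f/f. The part of these markers in the results below was not tested, and in whole liver fewer cells of a type and less RNA per cell cannot be told apart.

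Fatty acid oxidation genes showed no difference between the genotypes that passed the test. A single member was dim, meaning that its brightest probe set lay among the lowest 40% of all probe sets by mean, below an intensity of 48.4. Of the 34 members tested, 0 passed at 0.05 in limma after Benjamini-Hochberg adjustment over 13718 genes, where 0.0948% of all genes tested passed. Their median log2 difference, d/d minus f/f, was -0.05, beside -0.01 for all genes, and 21 of 34 (61.8%) had a negative difference, beside 53.5% of all genes. An unadjusted p under 0.05 was reached by 5 members (14.7%), beside 7.84% of all genes. These were Cyp4a14, Cpt2, Cpt1a and Crat, 4 members lower in d/d (11.8%, beside 3.07% of all genes), and Acsl5, 1 member higher in d/d (2.94%, beside 4.77%). Without f/f replicate 3 the same 5 members reached it, beside 11.2% of all genes in that fit, with 0 past the adjusted threshold. The number moved with single arrays. Leaving out d/d replicate 2 gave 3 members, beside 5.02% of all genes, and leaving out d/d replicate 3 gave 1, beside 5.4%. Without f/f replicate 1 it was 3, beside 8.44%, and without f/f replicate 2 it was 8, beside 8.45%. The 95% interval of the difference lay within 0.5 log2 of zero for 18 of the 34 members and within 1 log2 for 30. The exceptions to the wider bound were Cyp4a14, Acot1, Ehhadh and Vnn1. All differences are on the log2(intensity + 16) scale after quantile normalization with the standard error of limma, n = 3 each, which makes the change of dim genes look smaller.

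**Figure D1:**
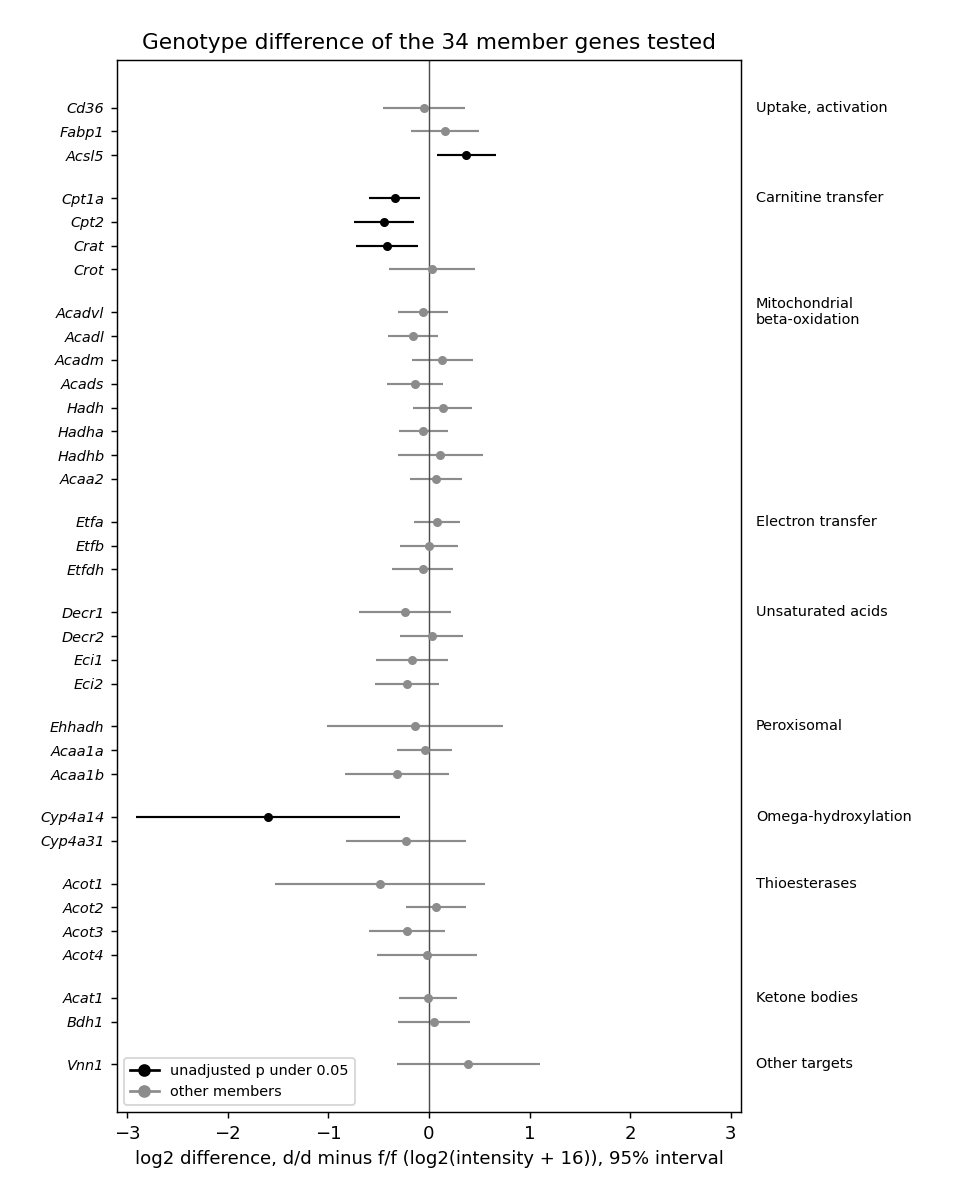
Log2 difference (d/d minus f/f, log2(intensity + 16)) of the 34 members tested, grouped by role from top to bottom, with the 95% interval of limma from 3 arrays each. Black points are the 5 members with an unadjusted p under 0.05, and Cyp4a14, Acot1, Ehhadh and Vnn1 have the widest intervals.

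Carnitine transfer was the step where 3 of 4 members lay lower in d/d at an unadjusted p under 0.05, although none passed after adjustment. Cpt1a, the carnitine palmitoyltransferase of the outer mitochondrial membrane and the main control point of entry, had intensities of 2173, 2201 and 1927 on the d/d arrays and 2892, 2776 and 2539 on the f/f arrays. Cpt2, its partner on the inner membrane, had 833, 686 and 797 in d/d and 1180.5, 984 and 1042 in f/f. Crat, which exchanges short acyl groups between carnitine and CoA, had 206, 202 and 176 in d/d and 277, 220.1 and 306 in f/f. For each of these 3 genes every d/d array lay below every f/f array, a separation that 14.1% of all genes tested showed in one direction or the other and 6.62% showed as lower in d/d. It was seen as higher in d/d for 7.52%. Among the 34 members, 5 (14.7%) had separate groups, 4 of them lower in d/d (Acadl besides these 3) and Acsl5 higher. The differences were -0.34 ± 0.11 for Cpt1a, -0.44 ± 0.13 for Cpt2 and -0.42 ± 0.13 for Crat (limma, adjusted p = 0.434, 0.37 and 0.429), or 0.79, 0.735 and 0.748 times the f/f level. Without f/f replicate 3 they were -0.39, -0.47 and -0.34, and all 3 genes kept an unadjusted p under 0.05 in limma. Only Cpt2 of the 3 kept it without d/d replicate 3, and Cpt1a lost it without f/f replicate 1.

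Crot, the peroxisomal carnitine octanoyltransferase, did not share this, with 2974, 3015 and 3292 in d/d and 3856, 3320 and 2295 in f/f. Its f/f arrays spanned the d/d range, and its difference of 0.03 ± 0.19 became -0.18 when f/f replicate 3 was left out and 0.20 when f/f replicate 1 was. The other probe sets of Cpt1a, Cpt2 and Crat gave smaller differences. That of Cpt2 had -0.25 ± 0.17, and those of Crat -0.17 and -0.07. For Cpt1a they had -0.01 and -0.11, and the set at -0.01 read 293, 299.7 and 347 in d/d and 403, 436 and 185 in f/f, where f/f replicate 3 lay lowest of all 6 arrays. Averaged over all probe sets, the differences were -0.16 for Cpt1a, -0.35 for Cpt2 and -0.22 for Crat. Of these genes only Cpt2 then kept an unadjusted p under 0.05 in limma. Slc22a5, the plasma membrane carnitine transporter, is outside the list and was chosen with its values in view. It read 165.4, 164 and 167 in d/d and 277, 244 and 199.9 in f/f, with no overlap, and a difference of -0.47 ± 0.14 (limma, adjusted p = 0.388). Slc25a20, which carries acylcarnitine across the inner membrane, had -0.02 ± 0.12, and its groups overlapped.

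**Figure D2:**
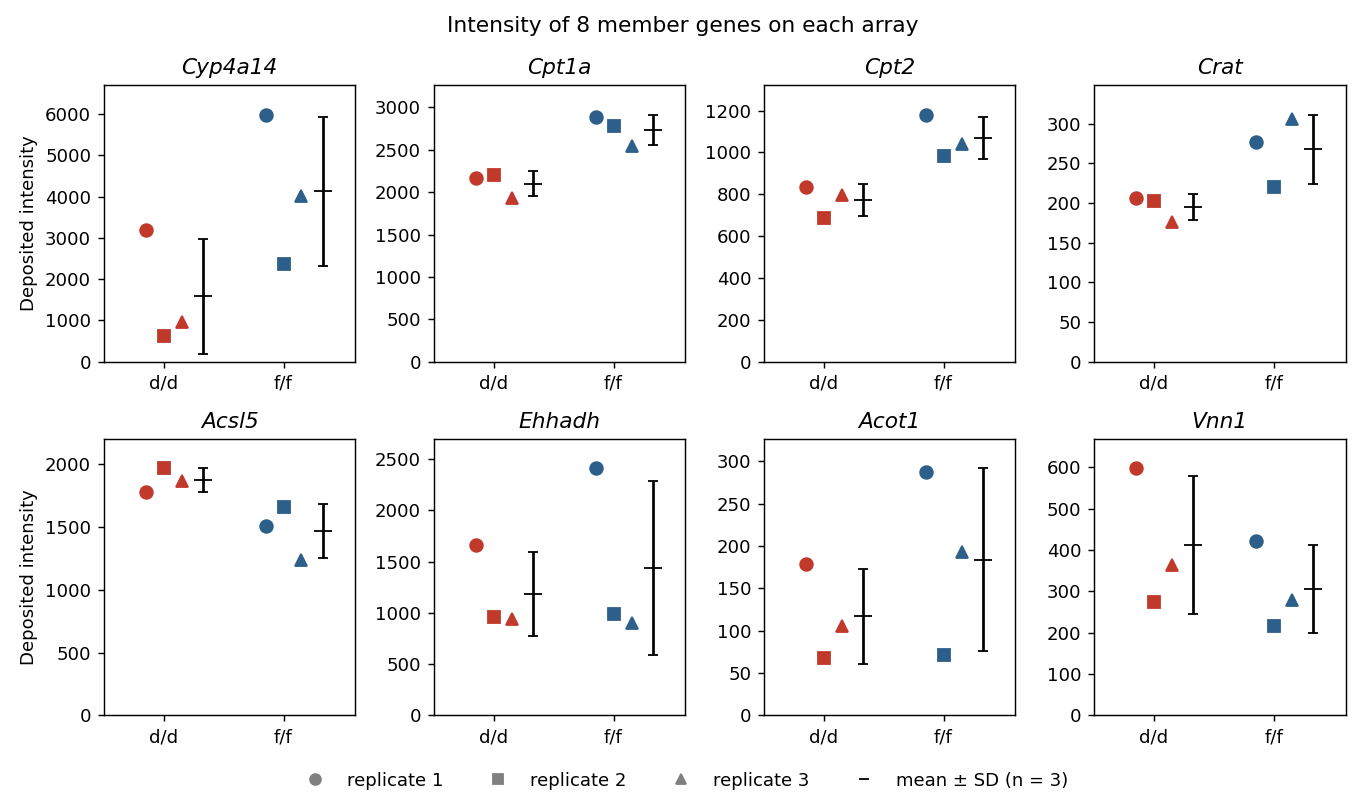
Deposited intensity of 8 members on each array (d/d left, f/f right; symbols mark the replicate number, bars the mean ± SD, n = 3, axes from 0). Cpt1a, Cpt2, Crat and Acsl5 have separate groups, while Cyp4a14, Ehhadh, Acot1 and Vnn1 have replicate 1 highest within each genotype.

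Uptake and activation included the member that lay higher. Acsl5, a long-chain acyl-CoA synthetase, had intensities of 1778, 1967 and 1869 in d/d and 1508, 1661 and 1239.6 in f/f. Every d/d array was above every f/f array, with a difference of 0.37 ± 0.13 or 1.29 times (limma, adjusted p = 0.497), and 0.25 without f/f replicate 3. Acsl5 lost its unadjusted p under 0.05 in limma without d/d replicate 2 or d/d replicate 3. Fabp1, the liver fatty acid binding protein whose promoter match is printed above, read 14622, 14014 and 15167 in d/d and 14794, 11364 and 14255 in f/f. These groups overlapped, at 0.16 ± 0.15, and the value was 0.0044 without f/f replicate 2. Cd36, the fatty acid translocase, had -0.05 ± 0.18, and its other bright probe set 0.05. The macrophage and endothelial cells of the liver are also known to express Cd36.

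Genes of mitochondrial beta-oxidation proper had small differences of either sign. Acadvl, Acadl, Acadm and Acads, the acyl-CoA dehydrogenases ordered by falling chain length, had differences of -0.06 ± 0.11, -0.16 ± 0.11, 0.13 ± 0.13 and -0.14 ± 0.12. Hadha and Hadhb, the subunits of the trifunctional protein, had -0.06 ± 0.11 and 0.11 ± 0.18, and Hadh, the dehydrogenase for shorter chains, 0.14 ± 0.13. Acaa2, the thiolase that ends the cycle, had 0.07 ± 0.11. Of the 8 genes, 4 had a negative and 4 a positive difference, 0 had an unadjusted p under 0.05, and the lowest adjusted p in limma was 0.802. Hadh read 5253, 5649 and 4835 in d/d and 5279.6, 4972 and 4358 in f/f, so its groups overlapped. Acadl, described for this after its values were seen, had the groups apart, with 1583, 1573 and 1459.6 in d/d and 1869, 1595 and 1736 in f/f, though the gap between the nearest arrays was small. The widest of these 8 intervals, that of Hadhb, ran from -0.31 to 0.54. A second bright probe set of Hadhb gave -0.18, and f/f replicate 3 read lowest of all arrays on the first (1766) but not on the second (2606).

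Electrons from the dehydrogenases pass through Etfa, Etfb and Etfdh, the flavoprotein and its oxidoreductase. Etfb read 3652, 3518 and 3422 in d/d and 3516, 3244 and 4278 in f/f, and the 3 genes had differences of 0.08 ± 0.10, 0.00085 ± 0.13 and -0.06 ± 0.13. Etfa, whose promoter match is printed above, had the smallest replicate spread among the members, 0.05 log2 (pooled SD within genotypes). The enzymes that reshape double bonds, Decr1 and Eci1 in mitochondria and Decr2 and Eci2 in peroxisomes, had -0.24 ± 0.20, -0.16 ± 0.16, 0.03 ± 0.14 and -0.21 ± 0.14. Eci2 read 2655, 2510.1 and 2235 in d/d and 3299, 2471 and 3089.5 in f/f. Replicates 1 and 3 of f/f exceeded every d/d array there, while f/f replicate 2 lay among them. None of these 7 genes had an unadjusted p under 0.05.

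Several peroxisomal and omega-oxidation genes varied widely between replicates. Cyp4a14, a fatty acid omega-hydroxylase and one of the most inducible PPARα targets in mouse liver, read 3187, 630.4 and 951 in d/d and 5987, 2372 and 4027 in f/f. The highest d/d array lay above the lowest f/f array, and within d/d the highest was 5.06 times the lowest. Its difference was -1.60 ± 0.57 with an interval from -2.91 to -0.29, or 0.331 times the f/f level (limma, adjusted p = 0.518). It was -2.27 without d/d replicate 1, -1.11 without d/d replicate 2 and -1.57 without f/f replicate 3. Cyp4a14 lost its unadjusted p under 0.05 in limma without d/d replicate 2, d/d replicate 3 or f/f replicate 1. It also lost it with a trend and robust variance. Cyp4a31, a close relative, read 351, 206 and 198 in d/d and 386, 284 and 225 in f/f, with -0.23 ± 0.26. Cyp4a genes are similar in sequence, so signal shared between relatives cannot be separated.

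Ehhadh, the bifunctional enzyme of peroxisomal beta-oxidation, was chosen for description with its array values in view. It read 1660.4, 959.5 and 944 in d/d and 2412, 993 and 898 in f/f, so replicate 1 stood above the others in both genotypes. Its difference of -0.14 ± 0.38 turned to 0.31 without f/f replicate 1, and leaving out f/f replicate 3 gave -0.40. Acaa1b, a peroxisomal thiolase, read 5749, 4329 and 3972 in d/d and 7954, 4681 and 5614 in f/f, with -0.32 ± 0.22 and -0.10 without f/f replicate 1. Its near copy Acaa1a had -0.04 ± 0.12, and cross-hybridization between the copies cannot be separated here. The 5 genes tested in the roles of peroxisomal beta-oxidation and omega-oxidation all had a negative difference, beside 53.5% of all genes. Cyp4a14 alone of them had an unadjusted p under 0.05, and Acaa1a turned to 0.045 without d/d replicate 3. Among peroxisomal enzymes listed under other roles, Crot and Decr2 had positive differences of 0.03 each. Eci2, Acot3 and Acot4 had negative ones of -0.21, -0.21 and -0.02.

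The acyl-CoA thioesterases, which release free fatty acid from CoA, are encoded by neighbouring genes of similar sequence. Acot1, the cytosolic member, read 178, 67.2 and 106 in d/d and 287, 71.3 and 193 in f/f. Its lowest array in each genotype was replicate 2, and the f/f arrays spanned 4.03 times from lowest to highest, against 2.65 times in d/d. The difference was -0.49 ± 0.45, and leaving out f/f replicate 1, 2 or 3 gave -0.09, -0.97 or -0.40. Acot2 in mitochondria and Acot3 and Acot4 in peroxisomes had 0.07 ± 0.13, -0.21 ± 0.16 and -0.02 ± 0.22. The mean intensities of these 3 genes ran from 72.1 to 104, close to 48.4, the limit for dim probe sets.

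The ketone body genes Acat1 and Bdh1 had differences close to zero. Acat1, the mitochondrial acetoacetyl-CoA thiolase, read 2269, 2115 and 2324 in d/d and 2625, 2172 and 2133 in f/f, with -0.01 ± 0.13. Bdh1, which interconverts acetoacetate and beta-hydroxybutyrate and is given by array although Acat1 was brighter, had 0.05 ± 0.16, with 1602, 1726 and 1844 in d/d and 2057, 1671 and 1371 in f/f. The spread among its f/f arrays covered the whole d/d range.

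Of the remaining PPARα targets, Vnn1, a pantetheinase, had a difference of the other sign from Cyp4a14. It read 597, 273 and 363 in d/d and 421, 215 and 279 in f/f. The groups overlapped, and replicate 1 was highest in both, with 0.39 ± 0.31 (adjusted p = 0.817 in limma) and 0.09 without d/d replicate 1. Its other probe set had 0.60 ± 0.30. Pdk4, the kinase that shuts off pyruvate dehydrogenase in fasting, was the 1 member too dim to be tested. Its intensities were 33.6, 35.8 and 40.3 in d/d and 62.1, 72.6 and 42.1 in f/f, and every d/d array lay below every f/f array. Tested among all single-symbol probe sets, Pdk4 had -0.48 ± 0.18 (limma, unadjusted p = 0.028, adjusted p = 0.656). With no dim filter or one at 20%, it joined the 5 members with an unadjusted p under 0.05. The shares of all genes in those fits were 7.27% and 7.48%.

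A shared ordering of the arrays ran through the members in both genotypes. Within f/f, replicate 1 read highest for 27 of the 34 members (79.4%), beside 23.5% of all genes tested. Within d/d, replicate 1 read highest for 21 members (61.8%), beside 31.2% of all genes. Both held for 16 members (47.1%), beside 6.57% of all genes, among them Cpt2, Acadm, Decr1, Ehhadh, Acaa1b, Cyp4a14, Cyp4a31, Acot1 and Vnn1. With f/f replicate 3 left aside, f/f replicate 1 exceeded f/f replicate 2 for 32 of 34 members (94.1%), beside 50.1% of all genes, and d/d replicate 1 was also highest for 20 of the 34 (58.8%), beside 16.4%. Members share the same arrays and are not independent, so these shares are a description with no test. The labels do not say what a replicate number stands for. The 18S readings of d/d replicate 1 and f/f replicate 1, 254 and 244, lay within the range of 218 to 455 of the arrays other than f/f replicate 3, and their 3-prime minus 5-prime differences of Actb were 1.24 and 1.25 log2, with 1.18 to 1.38 on the other arrays. Those of Gapdh were the highest of the 6 arrays on d/d replicate 1, at 0.38 log2, and the lowest on f/f replicate 1, at 0.26. The part of RNA quality in this ordering was not tested.

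**Figure D3:**
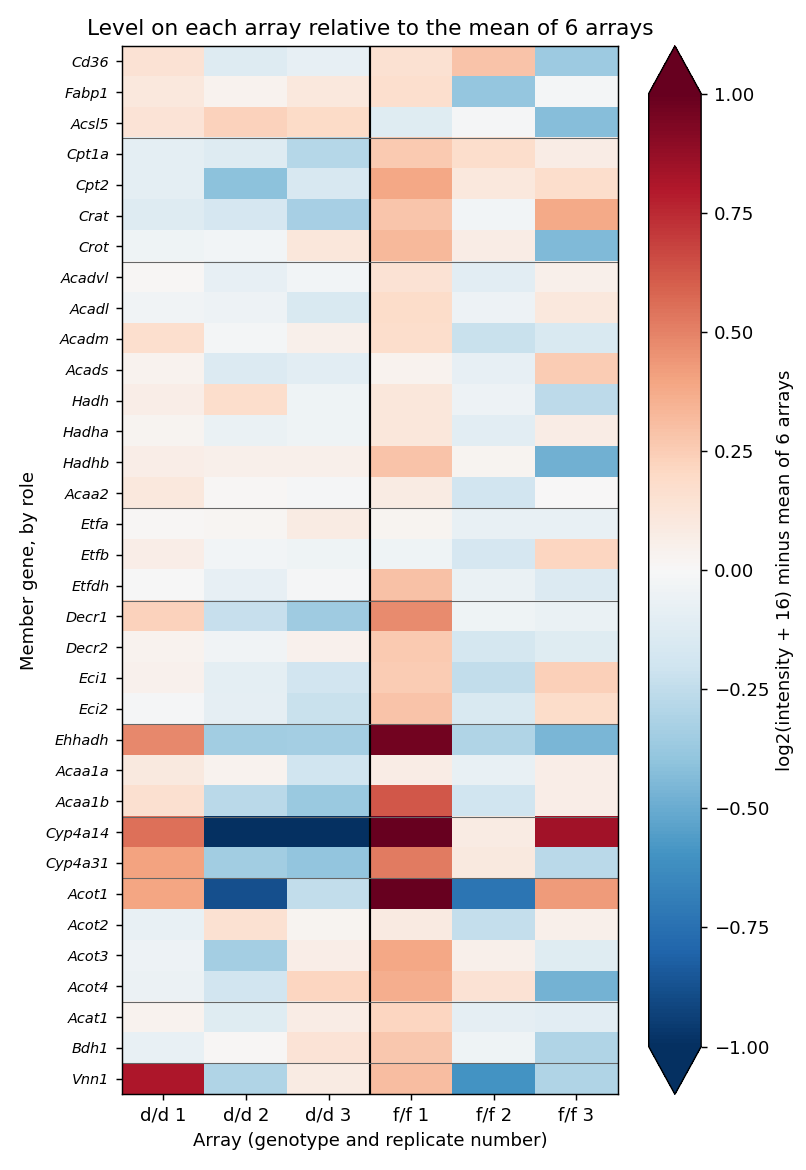
Level of the 34 members tested on each array (log2(intensity + 16), quantile normalized, minus the mean of the 6 arrays; colours saturate at 1 log2), with d/d arrays left, f/f arrays right and members grouped by role. Both d/d replicate 1 and f/f replicate 1 are above the mean for Ehhadh, Acaa1b, Cyp4a14, Cyp4a31, Acot1 and Vnn1.

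Spread between replicates varied widely among the members. The pooled SD within genotypes had a median of 0.17 log2 over the 34 members and 0.16 over all genes tested. It exceeded the 95th percentile of all genes, 0.38 log2, for 5 members, which were Cyp4a14 (0.99), Acot1 (0.78), Ehhadh (0.65), Vnn1 (0.52) and Cyp4a31 (0.42). All 5 are known as genes that PPARα agonists induce strongly in mouse liver. The other members lay below that percentile, among them Acaa1b (0.36), Acot4 (0.34) and Cpt1a (0.10), and a link between induction and spread was not tested. By role the median SD was 0.12 log2 for mitochondrial beta-oxidation, 0.14 for electron transfer, 0.16 for carnitine transfer, 0.18 for ketone body genes, and 0.20 both for uptake and activation and for the enzymes of double bonds. It was 0.29 for thioesterases, 0.36 for peroxisomal beta-oxidation and 0.70 for the omega-oxidation genes Cyp4a14 and Cyp4a31, and Vnn1 stood alone in its role. Within the peroxisomal role Acaa1a had 0.13. No test was made between these roles.

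**Figure D4:**
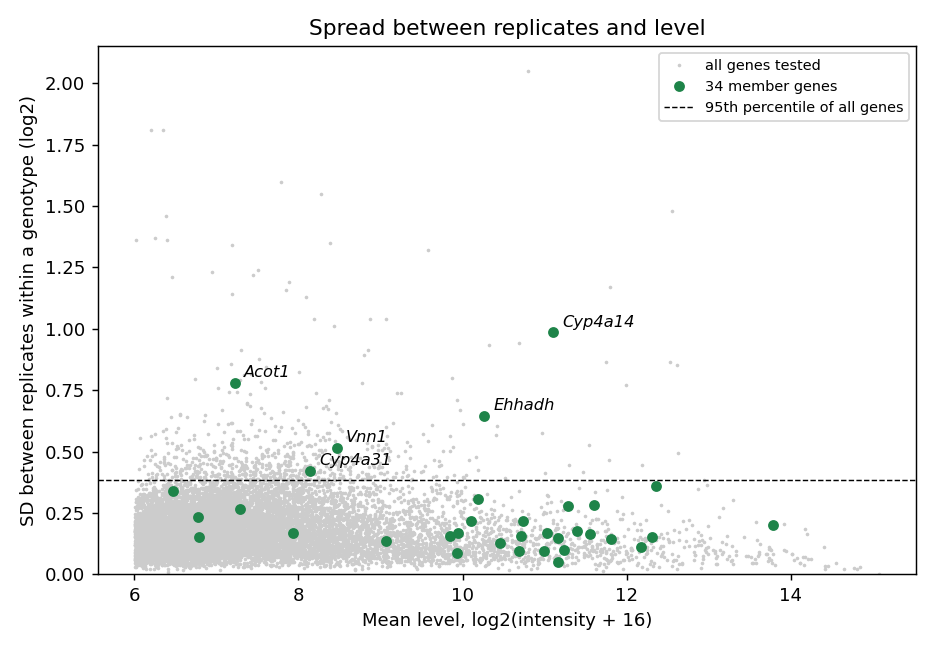
Pooled SD between replicates within genotypes (log2) against mean level (log2(intensity + 16)) for all 13718 genes tested (grey) and the 34 members (green). The dashed line is the 95th percentile of all genes, 0.38 log2, and the 5 named members lie above it.

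Every probe set of the members was also tested by itself. Of 61 probe sets, 0 passed in limma at 0.05 when adjusted over all 34945 probe sets with 1 symbol, beside 0.0744% of all, and 6 (9.84%) had an unadjusted p under 0.05, beside 6.81%. For 15 members several probe sets were above the dim limit, and for 10 of these the differences had the same sign. The others were Cd36, Crot, Hadhb, Acot4 and Acat1.

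The regulators and further genes of the pathway gave the setting. Ppara, the receptor itself, read 839, 944 and 1044 in d/d and 849.7, 807 and 653 in f/f, with 0.30 ± 0.14 and overlapping groups (limma, adjusted p = 0.67). Its partner Rxra had -0.09 ± 0.11 and the coactivator Ppargc1a -0.25 ± 0.16. Of 100 further pathway genes listed, 87 were tested and 0 passed over all genes, while 16 (18.4%, beside 7.84% of all genes) had an unadjusted p under 0.05, 14 of them lower in d/d (16.1%, beside 3.07%). Among them were 24 tested genes of a list of further PPARα targets, which was also drawn up with earlier results of these data known. Of these, 8 (33.3%, beside 7.84% of all genes) had an unadjusted p under 0.05, all lower in d/d (beside 3.07%), and 0 passed after adjustment. The median difference was -0.26, beside -0.05 for the 34 members and -0.01 for all genes. There were 21 negative and 3 positive differences, where 53.5% of all genes had a negative difference. The largest was that of G0s2, -1.74 ± 0.32 (limma, adjusted p = 0.124). Plin5 had the lowest adjusted p in the list, 0.121 in limma, at -0.80 ± 0.14. Plin2, the lipid droplet coat protein in that list, read 3379, 2794 and 3098 in d/d and 5591, 4955 and 3949.8 in f/f, with no overlap and -0.59 ± 0.16 (limma, adjusted p = 0.302). Angptl4, a secreted inhibitor of lipoprotein lipase, had -0.19 ± 0.16, and Fgf21, a hormone of fasting, -0.36 ± 0.16 at intensities of 71.6, 53.1 and 46.0 in d/d and 82.5, 61.0 and 92.1 in f/f. Acacb, whose product malonyl-CoA inhibits Cpt1a, had -0.31 ± 0.15, with 86.0, 73.7 and 68.0 in d/d and 110.1, 103 and 86.0 in f/f.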

How the data were processed

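The authors deposited linear intensities per probe set for 45101 probe sets on 6 arrays. Their summary of probes, background correction and scaling are not given in the sources used here, like the genome build. Per the labels' protocols, total RNA was isolated with Trizol and labelled by the Affymetrix manual. Probe sets were named by the platform annotation, in which 34945 had 1 symbol, 932 several and 9160 none, besides 64 control probe sets, and 0 symbols needed an update against the reference gene table.

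Intensities were used as log2(intensity + 16) and quantile normalized. Each gene was represented by its brightest probe set, and those among the lowest 40% of all probe sets, below 48.4, were dropped as dim. This left 13718 genes. The linear model of limma 3.58.1 (lmFit, eBayes; R 4.3.3) held the genotype alone. Adjusted p means the Benjamini-Hochberg value over all genes, with a threshold of 0.05. Array values in the text are deposited intensities, and separate groups were judged on them. The number of arrays limits the precision. Figures used matplotlib 3.10.9 in Python 3.11.15.

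The members and lists were chosen with earlier results of these data known. Values per array are given for members with an unadjusted p under 0.05, for the brightest further member of each role, and, picked after their values were seen, for Acadl, Bdh1, Ehhadh, single arrays of Hadhb and, outside the list, Slc22a5. Pdk4 is given as the dim member. G0s2 and Plin5, outside the list, are named as the extremes of the further PPARα targets, with their values in view. Alternatives changed the scaling, dim filter, probe set choice, pseudocount or variance model, weighted the arrays, blocked on replicate number, or left out 1 array.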

Additional observations from a re-analysis of the deposited data

How the results depend on the processing

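Members past the adjusted threshold numbered 0 in every alternative run, and the sign of the difference held in all of them for 21 of the 34 members. The count of all genes called was 13, and it was 21 with a trend and robust variance, 215 with array weights, 6 with the replicate number as a block and from 4, leaving out d/d replicate 1, up to 91, leaving out f/f replicate 3. Members with an unadjusted p under 0.05 numbered 5, against 3 with the mean of all probe sets and from 1, leaving out d/d replicate 3, up to 8, leaving out f/f replicate 2. With no dim filter or one at 20% they numbered 6, Pdk4 being the added member. They numbered 7 with the replicate block, which changed no member call. Over all genes tested, samples of the same number did not deviate together from their genotype means (correlations of -0.0033, -0.14 and -0.47). Of the 3 d/d arrays, 0 correlated best with its own number. With 3 arrays per genotype and f/f replicate 3 apart from the rest, this cannot decide whether the numbers pair the samples. The median member difference ran from -0.10 to 0.0065 with 1 array left out. Signs turned with array weights for Crot (-0.16), Hadhb (-0.056), Decr2 (-0.0097), Acaa1a (0.0065) and Bdh1 (-0.083). With the mean of probe sets they turned for Hadhb (-0.022), Acot4 (0.099) and Acat1 (0.072), and Etfb had -0.050 as deposited and -0.029 with a common median. With 1 array left out, Cd36 ran from -0.25 to 0.081, Crot from -0.18 to 0.20, Hadhb from -0.097 to 0.29, Acaa2 from -0.013 to 0.13, Etfb from -0.083 to 0.10, Etfdh from -0.15 to 0.068, Decr2 from -0.054 to 0.16, Ehhadh from -0.41 to 0.31, Acaa1a from -0.10 to 0.045, Acot2 from -0.034 to 0.13, Acot4 from -0.27 to 0.15, Acat1 from -0.065 to 0.091 and Bdh1 from -0.091 to 0.20. The cause of these turns was not tested. The array number and signal near the dim limit (Acot2, Acot3, Acot4, Pdk4) limit what could be detected.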
